A study of Mus musculus with 2 samples.

Results

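The genes described here are 32 genes of the lysosome and of autophagy, taken by symbol from the 32285 genes of a mouse single-cell RNA data set, and all 32 were found in both libraries. They comprise 14 soluble proteins of the lysosome lumen (Ctsa, Ctsb, Ctsd, Ctsl, Ctsz, Lgmn, Hexa, Gla, Gusb, Neu1, Man2b1, Psap, Grn and Npc2) and 4 lysosomal membrane proteins (Lamp1, Lamp2, Npc1 and Mcoln1). A further 12 act in autophagy (Ulk1, Becn1, Wipi1, Atg5, Atg7, Atg12, Map1lc3a, Map1lc3b, Gabarap, Gabarapl1, Gabarapl2 and Sqstm1), and Tfeb and Tfe3 are transcription factors of lysosomal genes. The cells were mouse hematopoietic stem cells kept in suspension culture for 48 h with RO-3066 or with DMSO, its solvent, and 1 library of each was made with the 10x Genomics 3' workflow. The labels give blood as the tissue and name the compound only as RO-3066, with no dose or target. The sources used here do not state strain, age, sex, genotype or the number of animals.

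After removal of 26 and 84 barcodes of low quality and of 302 and 118 likely doublets, 5832 DMSO cells and 3680 RO-3066 cells were kept. They held 173814651 and 162711050 UMIs (unique molecular identifiers, 1 per captured RNA molecule), with a median of 23938 UMIs per DMSO cell and 34596 per RO-3066 cell. The 2 libraries shared 7 cell barcodes, and the median mitochondrial share of UMIs was 1.49% in DMSO and 1.70% in RO-3066. Of the 10 stem cell markers examined, 9 reached 5 CPM (UMIs of a gene per 1000000 UMIs of the library) in at least 1 library. Markers of other lineages were also present: 11 of 12 megakaryocyte genes, 2 of 9 erythroid, 2 of 9 lymphoid, 1 of 9 neutrophil, 1 of 7 mast cell, 1 of 7 endothelial or stromal and 1 of 15 macrophage genes reached that level. With 1 library per treatment no test between treatments was possible. The 95% intervals below come from the UMI counts alone, cover counting error only, and say nothing of the spread between cultures.

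Lysosomes are acidic compartments in which soluble hydrolases such as cathepsins and glycosidases break down material that arrives by endocytosis or autophagy, while membrane proteins shield, fuse and vent the compartment. In autophagy a membrane grows around cytoplasm or an organelle: the Ulk1 kinase starts the process, the Becn1 lipid kinase complex marks the membrane, and Atg5, Atg7 and Atg12 attach LC3 and Gabarap proteins to it, which receptors such as Sqstm1 bind. The factors Tfeb and Tfe3 bind E-box sequences in the promoters of many of these genes, and hematopoietic stem cells are known for a reliance on autophagy and for slow lysosomal turnover in the resting state.

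Because Tfeb and Tfe3 recognise an E-box, the RefSeq promoter windows (250 bases before to 50 after the start site, build GRCm38.p6) were searched for CACGTG and for the longer TCACGTGA, which contains it. Each motif reads the same on both strands. Windows were matched for 27 members, and those of Atg12, Becn1, Map1lc3a, Ctsb and Npc1 were not. CACGTG was present for 9 of the 27 (33.3%), against 8.09% of 27025 genes and 7.15% of 32851 windows. By group it was present for 5 of 13 soluble, 2 of 3 membrane, 2 of 9 autophagy and 0 of 2 transcription factor genes. TCACGTGA was present for 3 of 13 soluble, 1 of 3 membrane, 0 of 9 autophagy and 0 of 2 transcription factor genes. These were 4 of the 27 (14.8%), namely Ctsa, Ctsd, Mcoln1 and Gla, against 1.12% of genes and 0.974% of windows. A stretch around TCACGTGA, in capitals, is printed for each of these 4. Ctsa and Gla each hold another TCACGTGA in the window that is not printed. For Lamp1 the 81 bases before the start site are printed, with 4 CACGTG cores in capitals. All stretches run 5′ to 3′ on the gene's strand.
Ctsa, chr2:164833750-164833777 (+): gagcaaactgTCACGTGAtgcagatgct
Ctsd, chr7:142387909-142387936 (-): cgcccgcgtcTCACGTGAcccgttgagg
Mcoln1, chr8:3500463-3500490 (+): ggcgccccgcTCACGTGAccgcggcgca
Gla, chrX:134601216-134601243 (-): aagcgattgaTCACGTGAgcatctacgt
Lamp1, chr8:13159080-13159160 (+): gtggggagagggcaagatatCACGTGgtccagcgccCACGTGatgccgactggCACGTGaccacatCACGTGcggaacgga
The core was also found for Ctsl, Lgmn, Atg5 and Atg7. No CACGTG lay in the windows of Hexa, Man2b1, Psap, Grn, Npc2, Gusb, Ctsz, Neu1 or Lamp2. The same held for Sqstm1, Ulk1, Wipi1, Gabarap, Gabarapl1, Gabarapl2, Map1lc3b, Tfeb and Tfe3. These matches describe letters in a window and not binding.

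In summed UMIs the soluble lysosomal group was higher in RO-3066 and the other groups differed less. The 14 soluble genes together made up 564 CPM of the DMSO library and 686 CPM of the RO-3066 library, a ratio of 1.22 (95% interval 1.21 to 1.23). The 4 membrane genes stood at 191 and 199.9 CPM, a ratio of 1.05 (1.03 to 1.06). Most of that sum was Lamp1 (0.980-fold), while Lamp2, Npc1 and Mcoln1 had ratios of 1.19, 1.12 and 1.15. The 12 autophagy genes stood at 786 and 833 CPM, a ratio of 1.06 (1.05 to 1.07). Most of that sum was Map1lc3b (0.818-fold), Gabarap (1.27-fold) and Gabarapl2 (0.913-fold). Per cell the same groups differed more. UMIs per cell were 1.81 times higher in RO-3066 for the soluble group and 1.55 times for the membrane group. They were 1.57 times higher for the autophagy group, beside 1.48 times for the mean total UMIs per cell. Before filtering, 188022321 UMIs were spread over 6160 DMSO barcodes and 171821236 over 3882 RO-3066 barcodes. Sequencing depth per cell and RNA content per cell cannot be told apart with 1 library each.

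Markers of other lineages differed between the libraries as well. Of 11 megakaryocyte genes past 5 CPM, 5 were at least 1.5-fold higher in RO-3066 and 0 lower (median log2 ratio 0.54, Treml1 2.72-fold). The list summed to 5545 CPM for DMSO and 4900 for RO-3066, most of it Pf4 (5108 and 4210 CPM, 0.824-fold). The erythroid sum was 213 and 471 CPM, most of it Hbb-bt (2.27-fold), and the lymphoid sum 50.7 and 88.2 CPM. The neutrophil sum was 102 and 72.7 CPM, most of it Prtn3 (96.8 and 70.2 CPM). S100a8 (0.138 and 0.529 CPM) and S100a9 (0.127 and 0.510 CPM) were higher in RO-3066. The mast cell sum was 2.89 and 7.203 CPM, most of it Cpa3 (3.96-fold), while Mcpt8 was lower (1.03 and 0.264 CPM). The endothelial and stromal sum was 7.21 and 16.6 CPM. The stem cell list summed to 423 and 479 CPM, with 0 of 9 genes past 1.5-fold. The part of these differences in the member values was not tested.

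Of the 32 members, 29 reached 5 CPM in at least 1 library; Lgmn, an asparagine-specific protease, Gla, the alpha-galactosidase, and Tfeb did not. Over the 29, the median log2 ratio of RO-3066 over DMSO, computed on CPM plus 1, was 0.23, beside -0.0024 over all 9335 genes past the same limit. It was 0.37 for 12 soluble genes, 0.16 for 4 membrane genes and 0.24 for 12 autophagy genes. At least 1.5-fold higher in RO-3066 were 3 of the 29 (Hexa, Map1lc3a and Sqstm1), against 5.22% of all genes, and none was 1.5-fold lower, against 2.07%. Man2b1, at 1.46-fold, was just outside. The count was 1 in place of 3 when cells were given equal weight, when cells were thinned to 10000 UMIs, when the Pf4 groups described below were weighted equally, or when cells with macrophage UMIs were left out. In these 4 settings the log2 ratio of Hexa, 0.61 with all cells, was 0.51 to 0.58, that of Map1lc3a 0.34 to 0.58 and that of Sqstm1 0.61 to 0.68, where the limit is 0.585. Counting intervals lay above 1 for 21 members, against 41.6% of genes, and below 1 for 5 (Lamp1, Atg5, Atg12, Map1lc3b and Gabarapl2), against 42.7%.

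**Figure D1:**
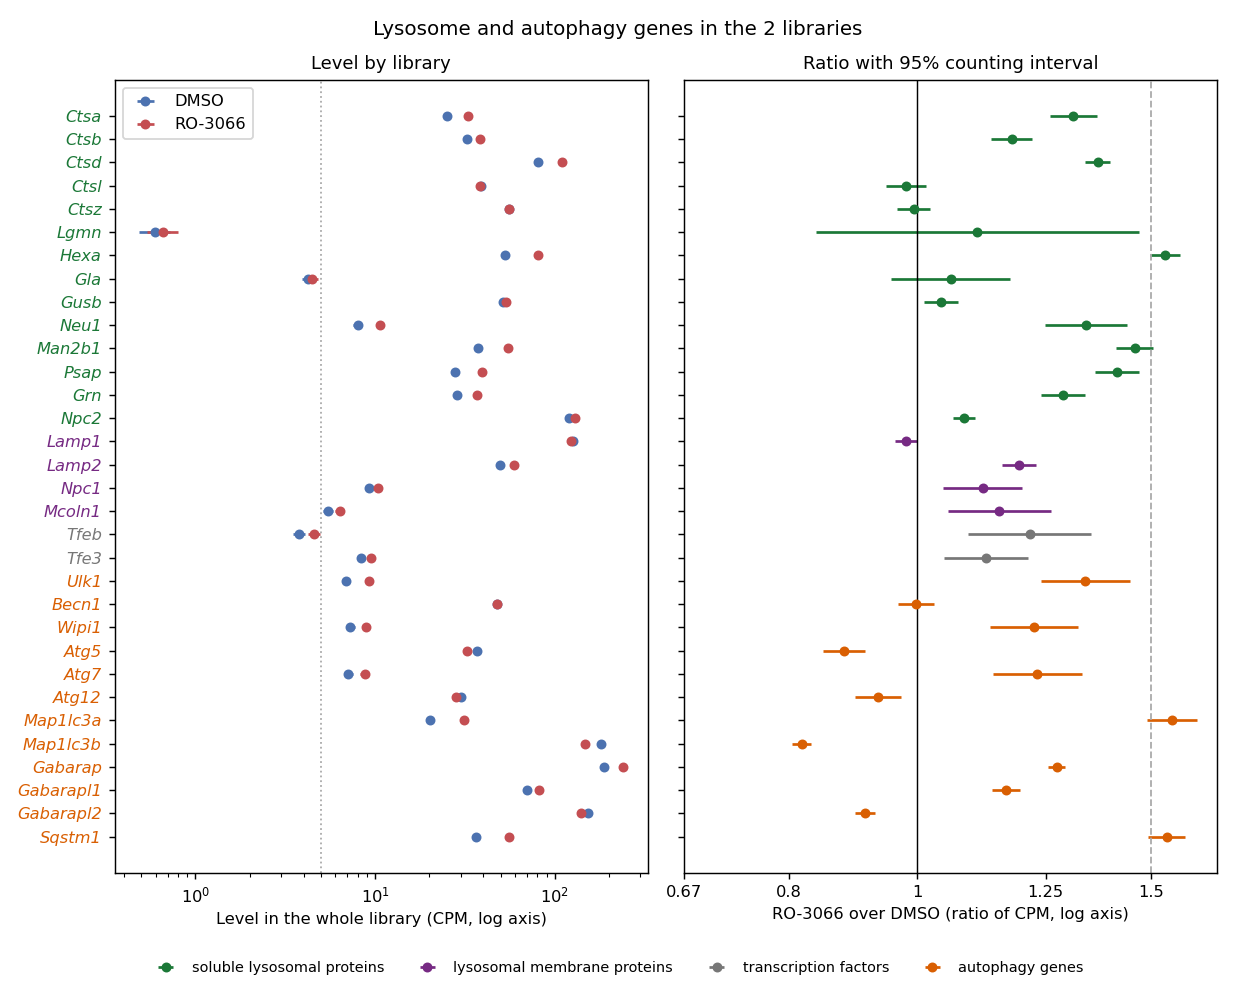
Levels of the 32 genes in the DMSO and RO-3066 libraries, in CPM on a log axis, with 95% intervals of counting error, and the ratio between them. The dotted line marks 5 CPM and the dashed line a ratio of 1.5. The 3 genes at least 1.5-fold higher in RO-3066 are Hexa, Map1lc3a and Sqstm1, and Map1lc3b has the lowest ratio, 0.818.

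Among the soluble proteins, the glycosidases Hexa and Man2b1 and the sphingolipid activator precursor Psap stood furthest above DMSO. Hexa, the alpha subunit of beta-hexosaminidase (chr9:59539540-59565109 in mm10), was at 52.7 CPM in DMSO and 81.1 CPM in RO-3066, a ratio of 1.54 (1.497 to 1.58). Man2b1, the lysosomal alpha-mannosidase, was at 37.4 and 54.6 CPM (1.46-fold, 1.41 to 1.51). Psap, whose product is cut into the saposins that present lipids to hydrolases, was at 27.8 and 39.3 CPM (1.41-fold, 1.36 to 1.47). The interval bounds of the 3 genes did not meet between libraries.

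The aspartic protease Ctsd was at 80.5 CPM in DMSO and 110.1 CPM in RO-3066 (1.37-fold, 1.34 to 1.40). Neu1, a sialidase, was at 7.99 and 10.7 CPM (1.34-fold, 1.25 to 1.44). Its log2 ratio of 0.38 dropped to 0.06 when groups of cells of like UMI totals were weighted equally. Ctsa, the carboxypeptidase that protects Neu1, was at 25.1 and 32.9 CPM (1.31-fold), Grn, the progranulin precursor, at 28.6 and 36.9 CPM (1.29-fold), and the cysteine protease Ctsb at 32.7 and 38.5 CPM (1.18-fold).

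The remaining cathepsins stayed close to DMSO. Ctsl, a cysteine endopeptidase, was at 38.9 and 38.1 CPM (0.981-fold, 0.948 to 1.02), and Ctsz, a carboxypeptidase, at 55.8 and 55.5 CPM (0.994-fold, 0.966 to 1.02). Npc2, which hands cholesterol to Npc1, was at 119.7 and 129.8 CPM (1.08-fold), and Gusb, the beta-glucuronidase, at 51.6 and 53.7 CPM (1.04-fold). Cathepsin genes thus covered ratios from 0.981 to 1.37 within the same 2 libraries. Gla was at 4.22 and 4.47 CPM and Lgmn at 0.593 and 0.658 CPM, both with intervals that included 1.

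The membrane proteins varied less. Lamp1, a heavily glycosylated coat protein of the lysosomal membrane, was at 126 CPM in DMSO and 124 CPM in RO-3066, a ratio of 0.980 (0.961 to 0.999). With every cell at equal weight its log2 ratio changed from -0.03 to 0.01. Lamp2, a related coat protein needed for fusion with autophagosomes and for chaperone-mediated autophagy, was at 49.9 and 59.5 CPM (1.19-fold, 1.16 to 1.23). The cholesterol exporter Npc1 was at 9.29 and 10.4 CPM (1.12-fold), and the calcium channel Mcoln1 at 5.50 and 6.34 CPM (1.15-fold). The factors stood at low levels: Tfeb at 3.76 and 4.57 CPM (1.22-fold, 1.09 to 1.35) and Tfe3 at 8.38 and 9.44 CPM (1.13-fold, 1.05 to 1.21).

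Within autophagy, members of the LC3 and Gabarap family, ubiquitin-like proteins that are tied to the growing membrane, went in different directions. Map1lc3a (chr2:155276297-155278073) was at 20.1 CPM in DMSO and 31.3 CPM in RO-3066, a ratio of 1.56 (1.49 to 1.63). Map1lc3b (chr8:121590361-121598760) was at 181 and 148 CPM, a ratio of 0.818 (0.804 to 0.832). The 2 LC3 genes therefore sat at opposite ends of the 32 ratios. Gabarap was at 188 and 240.1 CPM (1.27-fold, 1.26 to 1.29), Gabarapl1 at 70.1 and 81.8 CPM (1.17-fold) and Gabarapl2 at 153 and 139.9 CPM (0.913-fold, 0.897 to 0.929).

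Sqstm1 (p62), a receptor that links ubiquitinated cargo to LC3 (chr11:50199366-50210827), was at 36.2 CPM in DMSO and 55.9 CPM in RO-3066, a ratio of 1.54 (1.49 to 1.59). The upstream kinase Ulk1 was at 6.89 and 9.22 CPM (1.34-fold, 1.24 to 1.45), and Wipi1, a phosphoinositide-binding protein of the early membrane, at 7.30 and 8.94 CPM (1.22-fold, 1.14 to 1.32). Becn1 was level at 47.9 and 47.8 CPM (0.997-fold, 0.967 to 1.03). In the conjugation machinery, Atg7, the E1-like enzyme, was at 7.09 and 8.74 CPM (1.23-fold), while Atg12, the ubiquitin-like protein, was at 30.1 and 28.1 CPM (0.934-fold) and its partner Atg5 at 37.0 and 32.6 CPM (0.880-fold, 0.849 to 0.913). The log2 ratio of Atg12 changed from -0.10 to 0.04 when groups of like UMI totals were weighted equally. Limiting the autophagy group to genes of at least 20 CPM moved its median from 0.24 to -0.0040, since Ulk1, Wipi1 and Atg7 were then left out.

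Cells were next ordered by the share of their UMIs from Pf4, the platelet factor 4 gene of the megakaryocyte lineage, and divided into quintiles with limits from all kept cells of both libraries (0.0149%, 0.0297%, 0.0760% and 0.338%). The quintiles held 984 to 1274 DMSO cells and 629 to 919 RO-3066 cells. The median Pf4 share was 0.0546% in DMSO and 0.0332% in RO-3066. Within the lowest quintile it was 0.00902% and 0.00871%. At the UMI totals given next, the lower quintiles were thus parted by few Pf4 UMIs per cell. Cells rich in Pf4 also held more UMIs: from the lowest to the highest quintile the median was 21124 against 34863 UMIs in DMSO and 24038 against 81125 in RO-3066. In DMSO the soluble group had 660.0 CPM in the lowest and 481 CPM in the highest quintile, the membrane group 176 and 206 CPM, and the autophagy group 815 and 778 CPM. In RO-3066 the same quintiles had 700.2 and 651 CPM, 199 and 212 CPM, and 876 and 837 CPM. The soluble sum was thus lower, and the membrane sum, most of it Lamp1 UMIs, higher, in the quintile richest in Pf4 of both libraries. Single genes departed from the sum: 5 of 13 soluble genes were higher there in RO-3066, and Ctsd (1.13-fold in DMSO, 1.46-fold in RO-3066) and Hexa (1.08-fold and 1.36-fold) were higher in both. Among RO-3066 cells of like UMI totals, the sign of the soluble median differed between groups of cells, as given below.

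**Figure D2:**
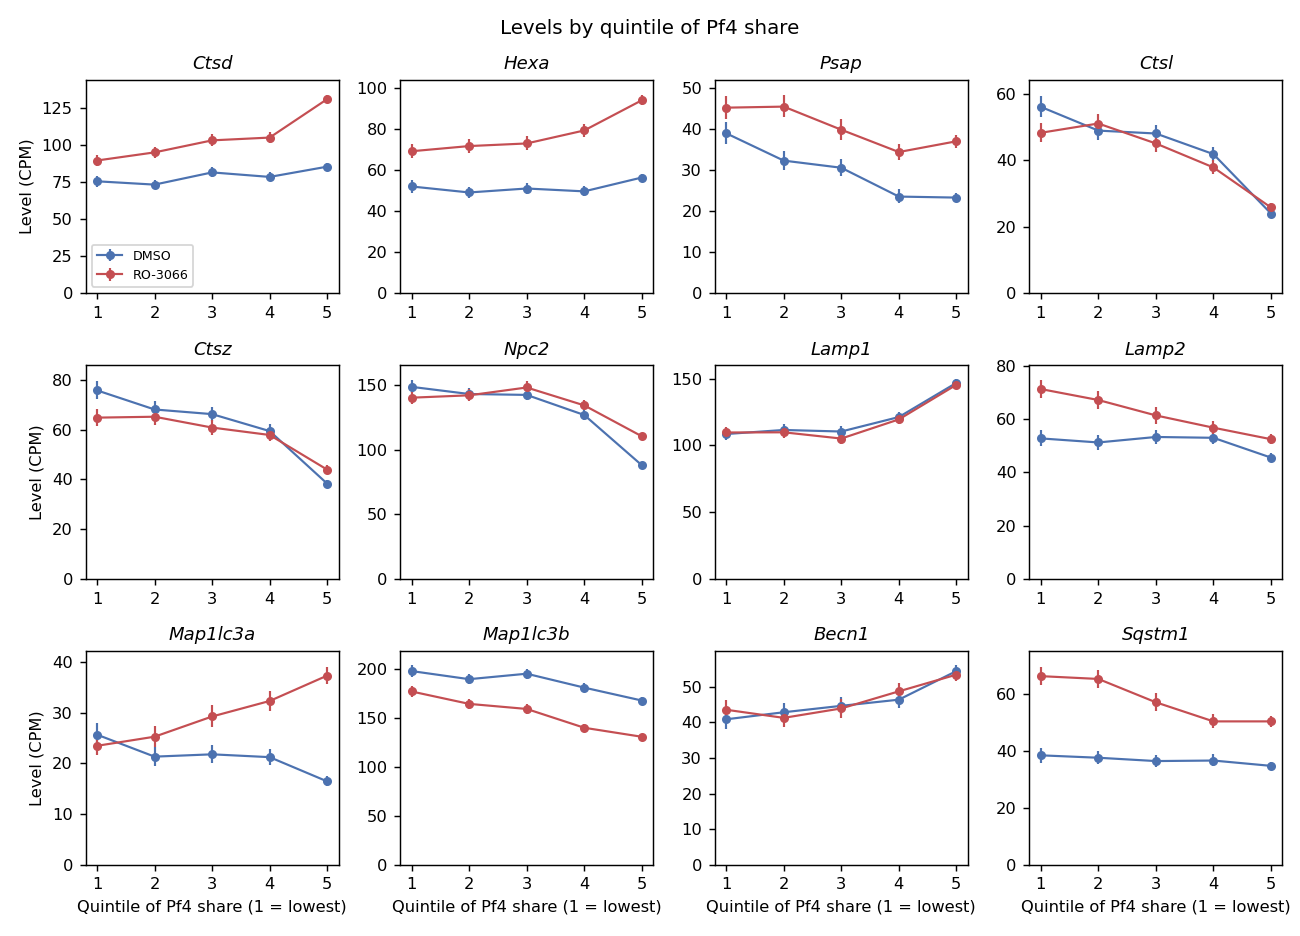
Levels by quintile of the Pf4 share of a cell's UMIs, in the DMSO and RO-3066 libraries, in CPM with 95% intervals of counting error. Ctsl runs from 56.0 down to 24.0 CPM in DMSO and Lamp1 from 109 up to 147 CPM.

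Gene by gene, the highest against the lowest Pf4 quintile gave a median log2 ratio of -0.42 in DMSO and -0.24 in RO-3066 for soluble genes, -0.11 and -0.24 for membrane genes and -0.12 and -0.17 for autophagy genes, beside -0.02 and -0.10 for all genes. At least 1.5-fold lower in the highest quintile were 7 of 30 members in DMSO (13.6% of all genes) and 2 of 31 in RO-3066 (14.8%). At least 1.5-fold higher were 0 in DMSO (8.8%) and 2 in RO-3066 (10.1%). In both libraries the interval lay below 1 for 15 of 29 members, against 30.4% of genes, and above 1 for 4 (Ctsd, Hexa, Lamp1 and Becn1), against 21.9%. The 15 comprise 8 of 12 soluble genes, Lamp2, Npc1 and 5 autophagy genes. For several of them the interval included 1 among RO-3066 cells of like UMI totals, as given below. Markers of cell state moved along the same axis: at least 1.5-fold lower in the highest Pf4 quintile were 8 of 10 stem cell genes in DMSO (median log2 ratio -2.82) and 7 of 10 in RO-3066 (-2.75), with 1 higher in each. From the lowest to the highest quintile the neutrophil sum was 180.4 and 41.3 CPM in DMSO and 93.1 and 45.7 CPM in RO-3066, and the erythroid sum 480.1 and 37.9 CPM in DMSO and 938 and 182 CPM in RO-3066. Their part in the member differences was not tested.

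Ctsl showed the widest difference by Pf4 share among members of at least 5 CPM in the whole of both libraries. Its 5 quintiles, from the lowest Pf4 share, stood at 56.0, 48.9, 48.0, 41.8 and 24.0 CPM in DMSO (highest over lowest 0.428) and at 48.2, 51.0, 45.0, 37.8 and 25.8 CPM in RO-3066 (0.535). The step to the highest quintile was the widest in each library. Tfeb, under 5 CPM in both whole libraries, had lower ratios than Ctsl. It was at 5.36 and 1.80 CPM in the lowest and highest quintile of DMSO (0.336) and at 6.27 and 2.69 CPM in RO-3066 (0.430). Ctsz stood at 75.7 and 38.3 CPM in the lowest and highest DMSO quintile and 64.8 and 43.9 CPM in RO-3066, and Npc2 at 148 and 87.9 CPM and at 140.0 and 110.2 CPM. Lamp1 went the other way, with 109, 112, 110.4, 121 and 147 CPM in DMSO (1.35-fold, 1.29 to 1.42) and 109.7, 109.8, 105, 119 and 145 CPM in RO-3066 (1.33-fold, 1.27 to 1.39). Lamp2, in contrast, was at 52.7 and 45.5 CPM in DMSO and at 71.2 and 52.4 CPM in RO-3066.

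The RO-3066 over DMSO ratio was also taken within each Pf4 quintile. Its interval lay above 1 in 5 of 5 quintiles for 12 members (Ctsa, Ctsb, Ctsd, Hexa, Man2b1, Psap, Grn, Lamp2, Ulk1, Gabarap, Gabarapl1 and Sqstm1), against 14.8% of genes, and below 1 in 5 of 5 for 3 (Atg5, Map1lc3b and Gabarapl2), against 16.6%. Sqstm1 had ratios of 1.72, 1.74, 1.57, 1.38 and 1.45 from the lowest to the highest quintile, and Map1lc3b of 0.895, 0.867, 0.816, 0.773 and 0.779. The soluble group median was 0.17 in the lowest quintile and 0.37 in the highest. For the autophagy group it was 0.11 and 0.06, with 0.23 in the fourth quintile.

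Map1lc3a was the member with opposite courses in the 2 libraries. From the lowest Pf4 quintile its level was 25.7, 21.4, 21.8, 21.3 and 16.5 CPM in DMSO, highest over lowest 0.641 (0.578 to 0.711), and 23.5, 25.3, 29.3, 32.3 and 37.4 CPM in RO-3066, 1.59 (1.45 to 1.75). The ratio of RO-3066 over DMSO accordingly went from 0.914 in the lowest quintile to 2.27 in the highest. Opposite courses with both intervals off 1 were seen for 6.85% of all genes, and the difference between libraries was not tested.

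**Figure D3:**
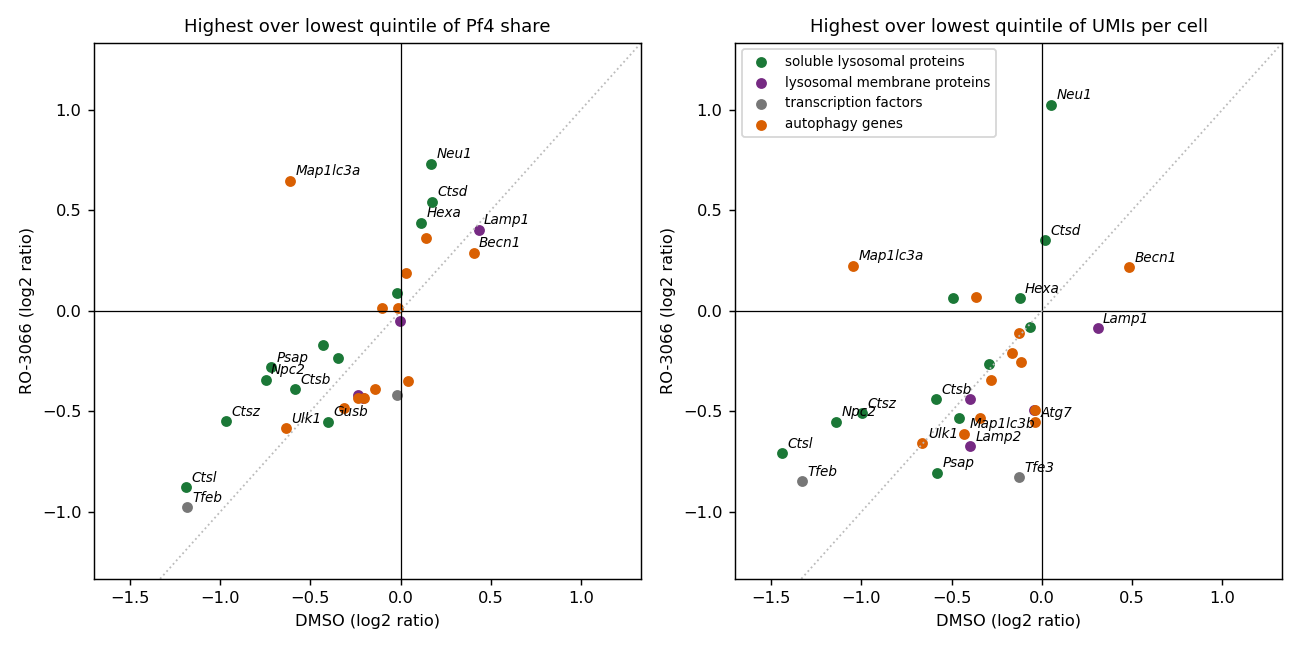
Log2 ratio of the highest over the lowest quintile in DMSO (horizontal axis) and RO-3066 (vertical axis), by Pf4 share and by UMIs per cell, each point 1 gene of at least 5 CPM in a compared quintile of both libraries, and the dotted line equal ratios. Map1lc3a lies apart, at -0.61 and 0.65 by Pf4 share and at -1.05 and 0.22 by UMIs per cell.

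Cells were also divided into quintiles of total UMIs (limits 18605, 23616, 29875 and 43361 UMIs), which held 554 to 1503 DMSO cells and 398 to 1349 RO-3066 cells. In the lowest and highest quintile the soluble group stood at 719 and 477 CPM in DMSO and at 797 and 668 CPM in RO-3066. The autophagy group stood at 894 and 775 CPM in DMSO and at 997 and 818 CPM in RO-3066. Shares of UMIs taken by both groups were therefore lower in cells with more UMIs. The membrane group was at 199 and 209.6 CPM in DMSO and at 247 and 199.5 CPM in RO-3066.

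Median log2 ratios of the highest over the lowest UMI quintile were -0.47 in DMSO and -0.35 in RO-3066 for soluble genes, -0.22 and -0.47 for membrane genes and -0.22 and -0.30 for autophagy genes, beside 0.04 and -0.10 for all genes. At least 1.5-fold lower were 7 of 30 members in DMSO (15.5% of all genes) and 7 of 30 in RO-3066 (16.1%). At least 1.5-fold higher were 0 in DMSO (12.9%) and 1, Neu1, in RO-3066 (8.38%). In both libraries the interval lay below 1 for 16 of 29 members, against 22.4% of genes, and above 1 for Becn1 alone, against 19.6%. Stem cell markers moved along this axis too, with 8 of 10 at least 1.5-fold lower in the highest UMI quintile of either library, and their part was not tested. Becn1 went from 38.5 to 54.2 CPM in DMSO and from 43.4 to 50.6 CPM in RO-3066.

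Several members had ratios of RO-3066 over DMSO that differed between UMI quintiles. The highest quintile also differed in Pf4, with a median share of 1.05% in DMSO and 0.254% in RO-3066. In it, 458 of 554 DMSO cells and 580 of 1349 RO-3066 cells were in the highest Pf4 quintile. Among those cells Ctsl was at 21.1 CPM in DMSO and 25.8 in RO-3066, and Lamp1 at 150.7 and 145.5. Map1lc3a was at 15.1 and 37.4 CPM, and Npc2 at 78.45 and 110.1. The part of Pf4 share in the ratios below was not tested. Map1lc3a had ratios of 0.883, 1.18, 1.38, 1.55 and 2.21 from the lowest to the highest quintile. Its level was lower at each step across the DMSO quintiles, 32.8, 23.9, 19.7, 16.5 and 15.3 CPM, and highest in the last of the RO-3066 quintiles, 28.9, 28.2, 27.2, 25.6 and 33.9 CPM. Opposite courses with both intervals off 1 were seen for 10.3% of all genes in this comparison. In the highest quintile Npc2 was at 80.5 CPM in DMSO and 120.7 CPM in RO-3066, beside a ratio of 0.994 in the lowest. Man2b1 had ratios of 1.10 in the lowest and 1.63 in the highest quintile, Ctsl of 0.851 and 1.44 and Neu1 of 0.601 and 1.28. Lamp1 ran in the other direction, from 1.15 to 0.874. Neu1 stood at 5.52, 6.51, 8.74, 8.76 and 12.3 CPM across the RO-3066 quintiles and between 6.66 and 9.55 CPM in DMSO. Tfe3 was at 15.8 CPM in the lowest and 8.46 CPM in the highest RO-3066 quintile, and at 9.63 and 8.73 CPM in DMSO.

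The ratio lay above 1 with its interval in 5 of 5 UMI quintiles for 9 members (Ctsa, Ctsb, Hexa, Psap, Grn, Lamp2, Ulk1, Gabarap and Sqstm1), against 10.2% of genes, and below 1 in 5 of 5 for none, against 9.93%. Sqstm1 had ratios of 1.46, 1.78, 2.06, 1.77 and 1.40, Psap of 1.65, 1.54, 1.72, 1.64 and 1.41, and Hexa of 1.41, 1.35, 1.49, 1.41 and 1.61. These 9 genes were higher in RO-3066 among cells of like UMI totals in all 5 quintiles, as well as in all 5 Pf4 quintiles.

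**Figure D4:**
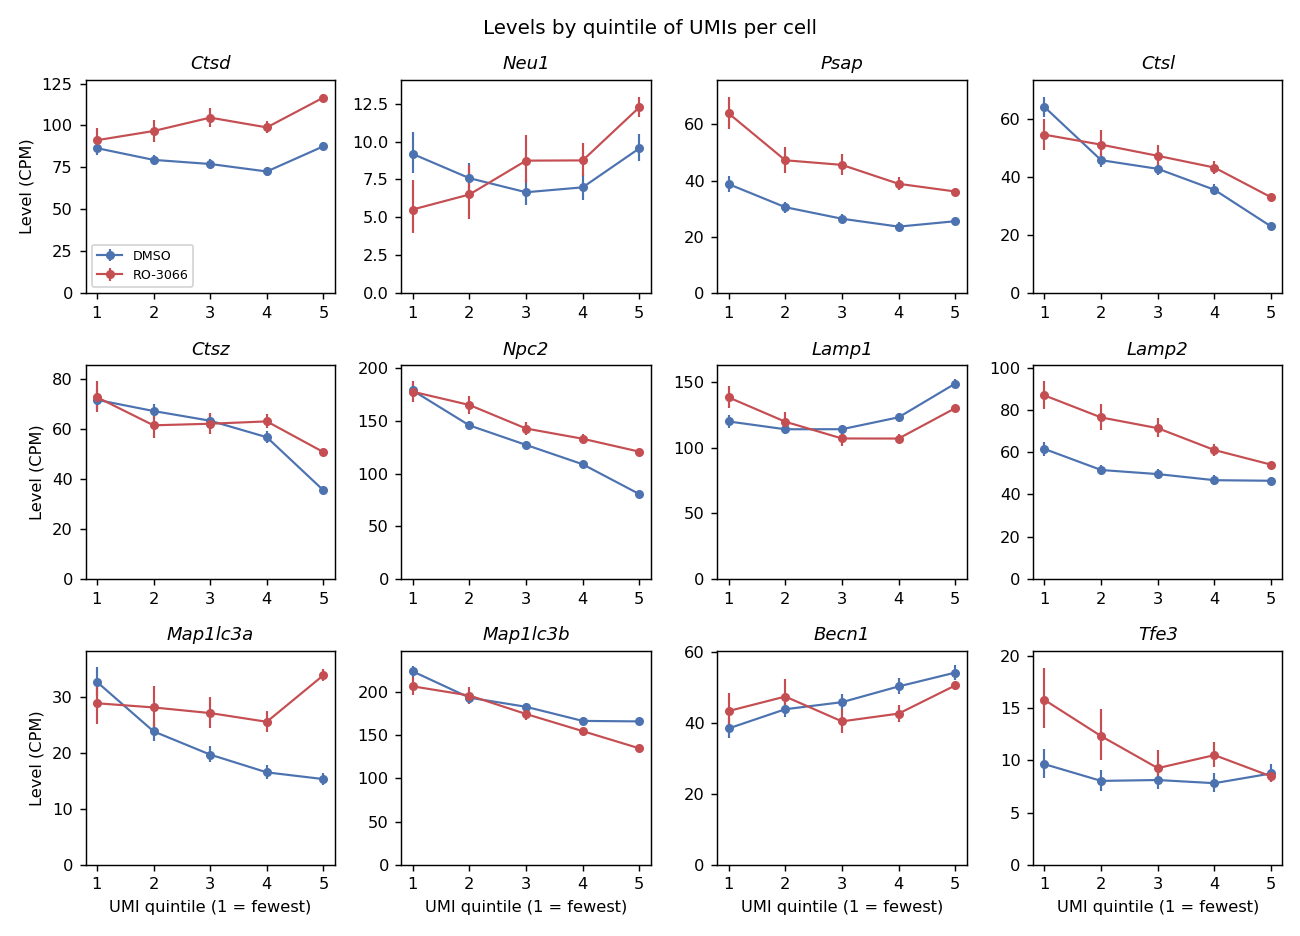
Levels by quintile of UMIs per cell, in the DMSO and RO-3066 libraries, in CPM with 95% intervals of counting error. Map1lc3a goes from 32.8 to 15.3 CPM across DMSO quintiles and ends at 33.9 CPM in RO-3066.

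As Pf4 share and UMIs rose together, the highest and lowest Pf4 quintiles were compared within UMI quintiles that held at least 20 cells on both sides, 4 in DMSO and 2 in RO-3066. Ctsl was lower in Pf4-rich cells in 4 of 4 DMSO comparisons (0.553 to 0.627) and 2 of 2 in RO-3066 (0.575 to 0.629). Lamp1 was higher in 4 of 4 (1.27 to 1.36) and 2 of 2 (1.26 to 1.53). These 2 opposite courses were thus present at like UMI totals in each library. In DMSO, Ctsz, Gusb, Psap and Npc2 were also lower in 4 of 4, with Psap between 0.483 and 0.565. In RO-3066 the ratios of Psap were 1.04 to 1.17 with intervals that included 1. The RO-3066 intervals of Man2b1, Lamp2, Npc1 and Atg7 also included 1 in both comparisons. Grn was 1.48-fold in 1 of them and 0.743-fold in the other, with both intervals off 1. Map1lc3b was lower in 2 of 2 (0.824 to 0.910) and in 2 of 4 DMSO comparisons. Map1lc3a was higher in 2 of 2 RO-3066 comparisons (1.60 to 1.71), and in DMSO its ratios were 0.687 to 1.19, with the interval below 1 in 1 of 4. With UMI quintiles at equal weight in each Pf4 quintile, the RO-3066 median changed from -0.24 to 0.09 for soluble genes and from -0.24 to 0.07 for membrane genes. Within the highest UMI quintile, with 70 Pf4-poor and 580 Pf4-rich RO-3066 cells, these medians were -0.11 and -0.16. Within the fourth, with 222 and 25 cells, they were 0.22 and 0.30.

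Macrophages and monocytes are rich in lysosomal enzymes, so their markers were measured in the same cells. The 15 macrophage and monocyte genes summed to 47.1 CPM in DMSO and 76.3 CPM in RO-3066, of which Lyz2, also expressed in other myeloid cells, made up 43.4 and 69.0 CPM. The 10 defining macrophage genes summed to 1.38 and 3.04 CPM, with Adgre1 and C1qa at 0 in both libraries. Fcgr1 was at 0.690 CPM in DMSO and 2.18 CPM in RO-3066, and C1qc at 0.0403 and 0.449 CPM. Csf1r, C1qb and Mpeg1 were also higher in RO-3066, with at most 12 UMIs in either library. Mrc1 was lower in RO-3066, at 0.472 and 0.203 CPM, as were Cx3cr1 and Ms4a7. Across Pf4 quintiles the 10 genes ranged from 0.867 to 1.89 CPM in DMSO and from 1.30 to 4.84 CPM in RO-3066. Leaving out the 20 DMSO and 78 RO-3066 cells with at least 2 UMIs of these genes gave median log2 ratios of 0.36 for soluble, 0.17 for membrane and 0.23 for autophagy genes, beside 0.37, 0.16 and 0.24 with all cells. The count of members at least 1.5-fold higher was then 1 in place of 3, with the log2 ratio at 0.58 for both Hexa and Map1lc3a and 0.61 for Sqstm1, where the limit is 0.585.

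Wider lists of the same pathways were read for comparison. Of 27 other soluble lysosomal proteins past 5 CPM, 4 were at least 1.5-fold higher in RO-3066 on CPM plus 1 and 0 lower. The shares of all genes were 5.22% and 2.07%, beside which the counts of the other lists are also to be read. The median log2 ratio of the 27 was 0.28. Genes are named by the size of the ratio among those of at least 20 CPM in either library. Smpd1, the acid sphingomyelinase, was at 12.9 and 22.4 CPM (1.74-fold), Dnase2a, the lysosomal DNase, at 21.9 and 35.9 CPM (1.64-fold), and the peptidase Tpp1 at 22.9 and 35.8 CPM (1.56-fold). Arsa also passed, at 5.26 and 10.1 CPM (1.91-fold), and lies under 20 CPM. Of 12 other lysosomal membrane proteins 2 were 1.5-fold higher and 0 lower (median 0.34). The 2 lie under 20 CPM: Slc38a9 at 10.2 and 16.4 CPM (1.60-fold) and Tmem175 at 10.1 and 15.6 CPM (1.55-fold). Like Arsa, they are named after their values were seen. Laptm5, a blood cell lysosomal protein, was at 103.5 and 149.6 CPM (1.44-fold), Ostm1, a chloride channel subunit, at 19.0 and 24.8 CPM (1.30-fold) and the tetraspanin Cd63 at 423 and 505 CPM (1.19-fold).

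None of 16 subunits of the vacuolar proton pump, which acidifies the lysosome, passed 1.5-fold either way (median 0.15). Atp6v0c had a ratio of 1.37, Atp6v0b of 1.35 and Atp6ap1 of 1.33. Of 19 genes for sorting to the lysosome, 0 passed 1.5-fold on CPM plus 1 (median -0.03). Vps18, under 20 CPM and named after its value was seen, was at 6.50 and 9.80 CPM. Its ratio of CPM was 1.51, and its log2 ratio on CPM plus 1 was 0.53, under the limit. Vps29, of the retromer, had a ratio of 0.854, Vps41 of 1.16 and Vps16 of 0.876. Of 20 genes for nutrient sensing at the lysosome, 1 was at least 1.5-fold higher and 0 lower (median 0.04). The 1 was Flcn, a regulator of the Rag GTPases, at 7.34 and 12.1 CPM (1.64-fold), named after its value was seen as it lies under 20 CPM. Among genes of at least 20 CPM the largest ratios were below 1: the GTPases Rraga (0.791) and Rheb (0.804), and Lamtor4 (0.825), of the scaffold that anchors the Rag GTPases.

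The 25 other core autophagy genes had a median of 0.04 and none passed 1.5-fold. Vamp8, a fusion protein, had a ratio of 0.797, Rb1cc1, a scaffold of the Ulk1 complex, of 1.16 and Atg3, the E2-like enzyme for LC3, of 0.860. Of 13 autophagy and mitophagy receptors 1 was at least 1.5-fold higher and 1 lower on CPM plus 1 (median 0.17). The higher one was Calcoco1, at 4.86 and 8.08 CPM (1.66-fold), named after its value was seen, and the lower one Bnip3. Bnip3, a mitophagy receptor known as a hypoxia target, was at 92.2 CPM in DMSO and 26.0 CPM in RO-3066, a ratio of 0.282 (0.272 to 0.292). Pink1, the mitophagy kinase, was at 14.2 and 21.7 CPM (1.53-fold), and Retreg1, an endoplasmic reticulum receptor, at 13.4 and 20.3 CPM (1.52-fold). On CPM plus 1 their log2 ratios were 0.58 and 0.57, just under the limit. The 3 other MiT/TFE and FoxO factors past 5 CPM had a median of 0.35 and none passed 1.5-fold. By Pf4 share in DMSO, the proton pump list had a median of 0.08 and the other soluble list of -0.20, with 9 of 28 of the latter at least 1.5-fold lower in the highest quintile (13.6% of all genes) and 2 higher (8.8%). In RO-3066, 8 of 29 of the same list were lower (14.8%) and 6 higher (10.1%), with a median of -0.30.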

How the data were processed

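The authors deposited raw UMI counts, 1 gene by barcode matrix a library, not normalized. The submitters' processing notes name Cell Ranger 5.0.1 and mm10, and the file headers give version 7.1.0. Whether counting used strand or intron reads is not given in the sources used here, and 10 members overlap a protein-coding gene on the other strand (GENCODE vM21). Ctsd and Map1lc3b also overlap a protein-coding gene on their own strand (Gm49369 and Gm20388), neither of which was matched to a row of the matrices by symbol or identifier.

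Barcodes under 1000 UMIs or 500 genes, or above 10% mitochondrial UMIs, were left out. Doublets were scored per library against simulated doublets among 50 neighbours (30 components, 2000 variable genes) and removed at 0.8% per 1000 barcodes. UMI counts of the remaining cells were added up per gene and scaled to CPM. Fold changes are ratios of CPM; log2 ratios and the 1.5-fold limit used CPM plus 1, for genes of at least 5 CPM in either library or quintile compared. Intervals are exact (Poisson, or conditional for ratios) at 95%. Cells are not replicates, so no p-value was computed. Members, marker lists and wider lists were chosen with earlier results of these data known. All members are named, plus the 3 genes of largest absolute log2 ratio among those of at least 20 CPM in each wider list. Some genes under 20 CPM are named besides, where stated. 1 listed symbol, Tmem55b, was not matched. Scripts were tested on simulated data. Alternatives covered scaling, cell weight, thinning, filters, pseudocount and quintile limits. Python 3.11.15, numpy 2.4.6, scipy 1.17.1, pandas 2.3.3 and scikit-learn 1.9.0 were used.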

Additional observations from a re-analysis of the deposited data

Results flagged for a closer look

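Map1lc3a had log2 ratios of the highest over the lowest quintile with opposite signs in the 2 libraries. From the lowest to the highest quintile of Pf4 share, the DMSO log2 ratio was -0.61 and the RO-3066 one 0.65. From the lowest to the highest quintile of UMIs per cell these values were -1.05 and 0.22. By UMIs per cell the RO-3066 levels were 28.9, 28.2, 27.2, 25.6 and 33.9 CPM. They went down as in DMSO until the last quintile, which also differed in Pf4 share between the libraries. The difference between the libraries was not tested, as there was 1 library per treatment. Within UMI quintiles, the Pf4 course was above 1 in both RO-3066 comparisons and its interval lay below 1 in 1 of 4 DMSO comparisons.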

How the results depend on the processing

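The direction of the soluble and membrane medians for RO-3066 over DMSO was the same under the 13 alternatives run (0.28 to 0.38 and 0.11 to 0.27), and the autophagy median ranged from -0.0040, with a minimum of 20 CPM, to 0.25. The membrane median of 0.16 became 0.27 with UMI quintiles at equal weight. The count of members at least 1.5-fold higher, 3, became 1 with equal weight per cell, with cells thinned to 10000 UMIs, with macrophage UMI cells left out and with Pf4 quintiles at equal weight, and 0 with a pseudocount of 5; the last lowers ratios of low genes by construction, and for the others the cause was not tested. In each of the 4 settings that gave 1, Sqstm1 stayed past the limit (log2 0.61 to 0.68). The log2 ratio of Lamp1 became 0.0093 with equal weight per cell, and that of Atg12 became 0.042 with UMI quintiles at equal weight. By Pf4 share, the DMSO membrane median of -0.11 became -0.31 after thinning. In RO-3066 the soluble median of -0.24 became 0.05 in the middle 3 UMI quintiles and 0.09 with UMI quintiles at equal weight, and the membrane median of -0.24 became 0.19 and 0.07. By the Pf4 limits of all kept cells, those 3 UMI quintiles held 4, 11 and 25 RO-3066 cells of the highest Pf4 quintile. Within the highest UMI quintile, with 580 such cells, the soluble and membrane medians were -0.11 and -0.16. No paired analysis was possible because each treatment had 1 library. Depth limits Lgmn, Gla, Tfeb and the quintile ratios of genes below 10 CPM the most.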
